A study of Mus musculus with 6 samples.

Results

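The genes described here are the Notch receptors Notch1, Notch2 and Notch3, the ligands Jag1, Jag2 and Dll1, the target genes Hes1, Hey1 and Heyl, and Rbpj, the DNA-binding protein of the pathway. They were chosen by symbol, 10 in all, and the rule that finds them uses no measured value. Earlier results of these data were known when they were chosen. Of these, 8 are among the 11736 genes with values. Jag2 and Dll1 are not analysed here. In the higher of its groups, no gene in the table averaged under 1.005 RPKM (reads per kilobase of gene per 1 M reads of the library), and the 8 genes were above that level in both groups. None of them is therefore listed through only its higher group.

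RNA came from gonads of XY (male) mouse embryos of strain C57BL/6 at E11.5. There were 3 libraries of genotype Cdyl-Het, heterozygous for a deficiency of Cdyl, and 3 of genotype Cdyl-KO, homozygous for it. All 6 also carried Nr5a1-hCD271, and cells with hCD271 on their surface, taken as the somatic cells of the gonad, were collected with magnetic beads. The labels do not say how the deficiency was made or whether embryos were pooled, so the p-values measure the spread between these libraries, which may be technical. The CDYL protein reads methyl marks on histones through its chromodomain and takes part in repression. The comparison asked how gene expression in these cells differs between the homozygous and the heterozygous state.

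Notch signalling passes between touching cells. A Jagged or Delta ligand on one cell binds a Notch receptor on its neighbour, the metalloprotease ADAM10 and then the gamma-secretase complex cut the receptor, and the freed intracellular part enters the nucleus. There it joins RBPJ and Mastermind proteins and switches on target genes, many of which encode repressors of the HES and HEY families. In the fetal gonad the pathway is known for keeping interstitial progenitor cells from becoming steroid-making Leydig cells, and in vessels for the choice between arterial and venous fate.

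Stretches upstream of Notch1 and Jag1, a receptor and its ligand, are shown because both genes had lower mean levels in Cdyl-KO. A further reason is that the proteins made by HES and HEY target genes bind short boxes of the kind marked in capitals. For Jag1 the groups overlapped and the difference fell short of the threshold (limma adjusted p = 0.181). Notch2 was also slightly lower in mean, with overlapping groups, and its window, which held both boxes, is not shown. Whether HES or HEY proteins act on any of these genes was not tested. The sequences are from RefSeq (GRCm38.p6, minus strand of chromosome 2, chr2:26503825-26504072 for Notch1 and chr2:137116645-137116770 for Jag1) and end where GENCODE M21 begins an exon, so 2 and 124 bases before the RefSeq start are left out. Capitals mark CACNAG and CACGNG.
Notch1: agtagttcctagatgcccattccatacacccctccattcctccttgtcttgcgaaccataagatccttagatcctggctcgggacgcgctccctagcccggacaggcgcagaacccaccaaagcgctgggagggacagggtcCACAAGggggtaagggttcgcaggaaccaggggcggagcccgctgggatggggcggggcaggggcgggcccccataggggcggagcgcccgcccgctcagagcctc
Jag1: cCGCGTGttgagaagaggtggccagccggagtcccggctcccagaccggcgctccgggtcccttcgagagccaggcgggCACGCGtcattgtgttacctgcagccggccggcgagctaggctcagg

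The 250 bases upstream of the RefSeq start were searched on both strands for CACNAG, for CACGNG and for TGGGAA, the core of the RBPJ motif. Notch1 held 1 CACNAG and Jag1 held 2 CACGNG, with no overlap between the motifs. The boxes were also found upstream of Notch3, whose mean was higher in Cdyl-KO, with 2 CACNAG and 1 CACGNG. Notch2, whose mean was slightly lower in Cdyl-KO, held 1 of each. Each of the Dll1 windows held 1 CACGNG. Jag2 and Rbpj held neither box. Over all 32851 such windows, 36.7% held CACNAG, 23.5% held CACGNG and 21.6% held TGGGAA. Among the members with an entry, TGGGAA was found in both windows of Rbpj and in no window of Notch1, Notch2, Notch3, Jag1, Jag2 or Dll1. Entries were present for 7 of the 10 members, and Hes1, Hey1 and Heyl had none. A match is a run of letters and no measure of binding. The Notch1 window lies in an intron of a longer GENCODE gene model, whose start is further upstream. The windows of Rbpj, which overlap each other, that of Jag2 and 1 of Dll1 also lie wholly within the span of the GENCODE gene.

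The values implied totals of 34.6 to 45.2 M reads per library. Library correlations of log2 values across genes were 0.976 to 0.983 within groups and 0.962 to 0.977 between groups. Levels are given as scaled RPKM, that is, after one factor for each library had been divided out. Differences are Cdyl-KO minus Cdyl-Het of log2(scaled RPKM + 1), tested with limma and adjusted by Benjamini-Hochberg over all genes. This scale understates the change of weakly expressed genes. The median difference of all genes was 0.00 after scaling and -0.12 on the deposited values. The scaled median rose with level, at -0.09, -0.03, 0.02 and 0.07 in 4 groups of genes from lowest to highest. Notch1 and Heyl belong to the lowest group. Cdyl itself was at 7.77, 8.06 and 8.22 scaled RPKM in Cdyl-Het, against 6.77, 6.93 and 7.07 in Cdyl-KO (limma adjusted p = 0.0702). Since the altered part of the gene is not known here, this level is no check of the labels. Of the defining markers of gonadal somatic cells, Nr5a1 averaged 85.8 and 77.7 scaled RPKM in Cdyl-Het and Cdyl-KO, Gata4 79.1 and 75.1, and Wt1 70.5 and 75.9. These are the most abundant genes of a list for the gonadal somatic and supporting lineage, and less abundant ones differed. Sox9 fell from a mean of 51.7 to 25.1 (limma adjusted p = 0.0153), and Emx2, Nr0b1 and Lhx9 rose (ratios 1.49, 1.45 and 1.39).

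Hey1 rose and Notch1 fell in Cdyl-KO, and the other 6 members did not pass the threshold. These 2 calls among 8 members stand beside 7.50% of all genes called. The median difference of the 8 members was -0.05, with 3 above and 5 below 0, against 0.00 over all genes. Groups did not overlap in 4 of the 8 members, Hey1 and Notch3 being higher and Notch1 and Heyl lower in Cdyl-KO, and in 31.6% of all genes (17.1% with Cdyl-KO above and 14.5% with Cdyl-KO below).

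**Figure D1:**
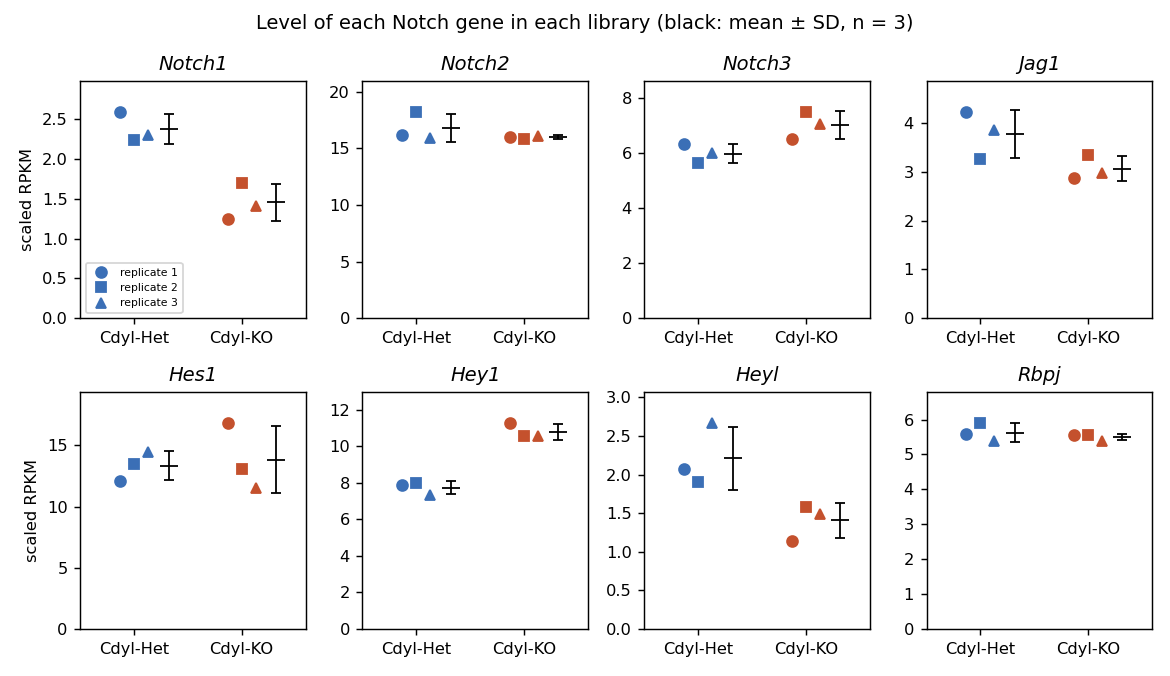
Scaled RPKM of the 8 Notch genes (vertical axes, each from 0) in 3 Cdyl-Het and 3 Cdyl-KO libraries, with symbols for the replicate and black marks for the mean and SD. The groups are apart for Notch1, Notch3, Hey1 and Heyl and overlap for Notch2, Jag1, Hes1 and Rbpj.

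If the values are RPKM, as was inferred, they are levels per length, and the members can be ranked. The order, and the receptor shares given below, depend on the exon length taken for each gene. Notch2 was the highest, at a mean of 16.4 scaled RPKM over the 6 libraries, above 82.6% of all genes. Hes1 followed at 13.6, Hey1 at 9.26, Notch3 at 6.49, Rbpj at 5.56, Jag1 at 3.42, Notch1 at 1.92 and Heyl at 1.81. The ranges of neighbours over the libraries overlapped for Notch2 and Hes1, Hey1 and Notch3, Notch3 and Rbpj, and Notch1 and Heyl. They did not overlap between Hes1 and Hey1, Rbpj and Jag1, or Jag1 and Notch1. Notch1 and Heyl, the lowest members, were above only 11.8% and 10.3% of all genes.

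Among the receptors, Notch1 (chromosome 2, 26457903 to 26516663, mm10) was at 2.59, 2.24 and 2.30 scaled RPKM in Cdyl-Het, against 1.25, 1.70 and 1.41 in Cdyl-KO. All Cdyl-KO libraries lay below all Cdyl-Het libraries, and Cdyl-KO replicate 2 was the nearest to them. The means were 2.38 ± 0.185 and 1.45 ± 0.228 (SD, n = 3 per group), a ratio of 0.611. Notch1 fell by 0.46 on the log2 scale (SE 0.10, limma adjusted p = 0.0398). Read numbers behind the values were 1332, 1300 and 1536 for Cdyl-Het, then 740, 1005 and 844 for Cdyl-KO. The call was lost when any 1 library was left out, with limma adjusted p of 0.111, 0.0890 and 0.110 without Cdyl-Het replicate 1, 2 or 3 and 0.108, 0.0532 and 0.1003 without Cdyl-KO replicate 1, 2 or 3. The log2 change in those fits was -0.54 to -0.40. An exon of Notch1 overlaps 0610009E02Rik and Gm13568 on the other strand, and the strand setting of the counting is not given.

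Notch2 (chromosome 3, 98013527 to 98150361), the most abundant receptor here, was at 16.2, 18.2 and 15.9 scaled RPKM in Cdyl-Het, against 16.0, 15.8 and 16.1 in Cdyl-KO. Cdyl-Het replicate 2 was the highest library and the other 5 lay close together, so that the groups overlapped. The log2 change was -0.06 (SE 0.06, limma adjusted p = 0.557). Between 6316 and 8063 reads stood behind each value. An exon of Gm42820 overlaps Notch2 on the same strand.

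Notch3 (chromosome 17, 32120820 to 32166852), the receptor known from vascular smooth muscle and pericytes, was at 6.31, 5.63 and 5.98 scaled RPKM in Cdyl-Het, against 6.49, 7.48 and 7.06 in Cdyl-KO. The groups did not overlap, but the gap between Cdyl-Het replicate 1 and Cdyl-KO replicate 1 was small. The difference fell short of the threshold, at a log2 change of 0.20 with SE 0.07 (limma adjusted p = 0.123). In 5 of the 6 libraries its value did not come out as whole reads with the GENCODE exon length, so no read number is given. Gm17276 overlaps an exon of Notch3 on the other strand.

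The mix of the receptors can be read without any scaling between libraries. Notch1 made up 10.3, 8.60 and 9.50% of the summed RPKM of Notch1, Notch2 and Notch3 in Cdyl-Het, against 5.25, 6.80 and 5.75% in Cdyl-KO. Notch3 made up 25.1, 21.6 and 24.7% and then 27.3, 29.9 and 28.7%. For both shares the groups did not overlap. Notch2 held most of the sum in every library, at 66.7 ± 2.75% and 65.4 ± 2.09% (SD, n = 3 per group), and its groups overlapped. In an exact permutation test, two-sided, p was 0.10 for the shares of Notch1 and of Notch3, the smallest value that 3 against 3 libraries can give, and 0.60 for Notch2. Adjusted by Benjamini-Hochberg over the 13 ratios examined within libraries, the values were 0.13, 0.13 and 0.65. These ratios were chosen after the levels had been seen. Notch1 was lower without overlap, and the sum of the receptors, mostly Notch2, varied by less than that gap. The share of Notch1 therefore had to separate and is no further test.

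**Figure D2:**
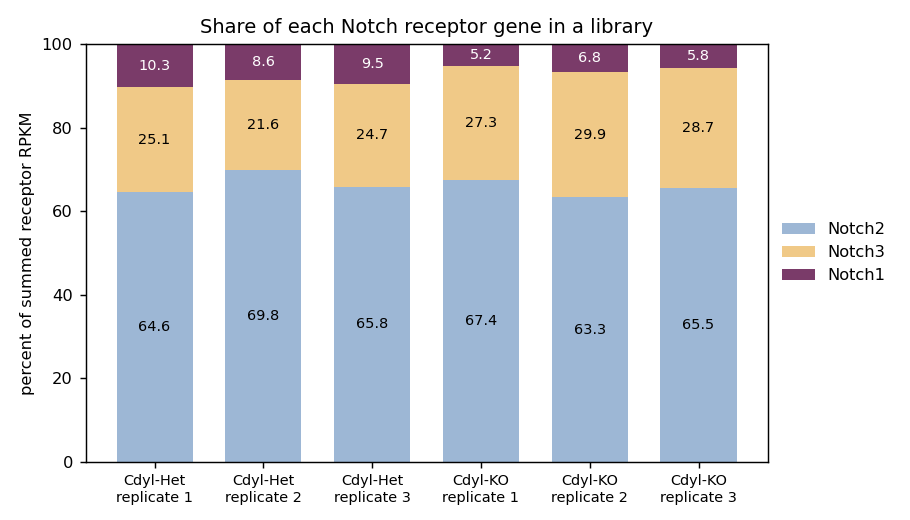
Share of each receptor gene in the summed RPKM of Notch1, Notch2 and Notch3 (percent, stacked) in each of the 6 libraries. Notch1 takes 8.60 to 10.3% in Cdyl-Het and 5.25 to 6.80% in Cdyl-KO, while Notch2 is the largest part of every bar.

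Of the ligands, Jag1 is the one with values. Jag1 (chromosome 2, 137081456 to 137116644), a Jagged ligand, was at 4.22, 3.25 and 3.86 scaled RPKM in Cdyl-Het, against 2.86, 3.35 and 2.97 in Cdyl-KO. Cdyl-Het replicate 2 lay below Cdyl-KO replicate 2, so the groups overlapped. The means were 3.78 ± 0.492 and 3.06 ± 0.255 (SD, n = 3 per group), and the difference fell short of the threshold, at a log2 change of -0.23 with SE 0.09 (limma adjusted p = 0.181). Its values stood for 696 to 1056 reads. Relative to Notch1 in the same library, Jag1 was at 1.63, 1.45 and 1.68 in Cdyl-Het, against 2.30, 1.97 and 2.10 in Cdyl-KO, with no overlap (exact permutation p = 0.10, two-sided, adjusted 0.13).

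Among the targets, Hey1 (chromosome 3, 8663359 to 8667256), a basic helix-loop-helix repressor, was at 7.88, 8.01 and 7.31 scaled RPKM in Cdyl-Het, against 11.3, 10.5 and 10.5 in Cdyl-KO. Every Cdyl-KO library lay above every Cdyl-Het library, with little spread within either group. The means were 7.73 ± 0.367 and 10.8 ± 0.429 (SD, n = 3 per group), a ratio of 1.39. Hey1 rose by 0.43 on the log2 scale (SE 0.06, limma adjusted p = 0.00937). Read numbers were 930, 1065 and 1120 for Cdyl-Het, then 1536, 1432 and 1442 for Cdyl-KO. Hey1 passed in all 13 alternative fits, with log2 changes of 0.30 to 0.48 and adjusted p of 0.0069 to 0.0393.

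Heyl (chromosome 4, 123233556 to 123249875), a HEY family gene known from vascular smooth muscle, had the opposite sign. It was at 2.07, 1.90 and 2.67 scaled RPKM in Cdyl-Het, against 1.14, 1.58 and 1.49 in Cdyl-KO. Cdyl-Het replicate 3 stood highest, and all Cdyl-KO libraries lay below all Cdyl-Het libraries. The difference fell short of the threshold after scaling, at a log2 change of -0.41 with SE 0.13 (limma adjusted p = 0.0952). Without scaling it passed, at -0.51 with a limma adjusted p of 0.0427, in a fit where 1558 genes were lower and 305 higher. Heyl rested on the fewest reads of the members with read numbers, 382, 396 and 641 for Cdyl-Het, then 244, 336 and 320 for Cdyl-KO.

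The level of Hey1 relative to Heyl in the same library was 3.81, 4.21 and 2.74 in Cdyl-Het, against 9.86, 6.67 and 7.06 in Cdyl-KO. The lowest Cdyl-KO ratio was above the highest Cdyl-Het ratio, and the means were 3.59 ± 0.763 and 7.86 ± 1.74 (SD, n = 3 per group; exact permutation p = 0.10, two-sided, adjusted 0.13). This ratio does not depend on the scaling between libraries, but a shift that differs with level would remain in it. Hey1 was higher and Heyl lower without overlap, so the ratio had to separate and is no further test.

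Hes1 (chromosome 16, 30064384 to 30067796), a repressor that is a classical Notch target and also answers to other signals, was at 12.1, 13.5 and 14.4 scaled RPKM in Cdyl-Het, against 16.9, 13.1 and 11.55 in Cdyl-KO. The Cdyl-KO libraries held both the highest and the lowest value of all 6. The means were 13.3 ± 1.17 and 13.8 ± 2.74 (SD, n = 3 per group), and the difference fell short of the threshold, at a log2 change of 0.04 with SE 0.13 (limma adjusted p = 0.895). Its values stood for 892 to 1432 reads. Hey1 relative to Hes1 was at 0.650, 0.594 and 0.506 in Cdyl-Het, against 0.669, 0.806 and 0.912 in Cdyl-KO, groups that lay apart by a small margin (exact permutation p = 0.10, two-sided, adjusted 0.13).

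Rbpj (chromosome 5, 53466152 to 53657362), through which the receptors act on DNA, varied little. It was at 5.58, 5.91 and 5.38 scaled RPKM in Cdyl-Het, against 5.56, 5.55 and 5.40 in Cdyl-KO, with overlapping groups. The log2 change was -0.03 (SE 0.06, limma adjusted p = 0.808). In 2 of the 6 libraries its value did not come to whole reads. Rbpj has processed pseudogenes, and its level is uncertain as far as the counting could split reads between near-identical copies, which was not tested.

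**Figure D3:**
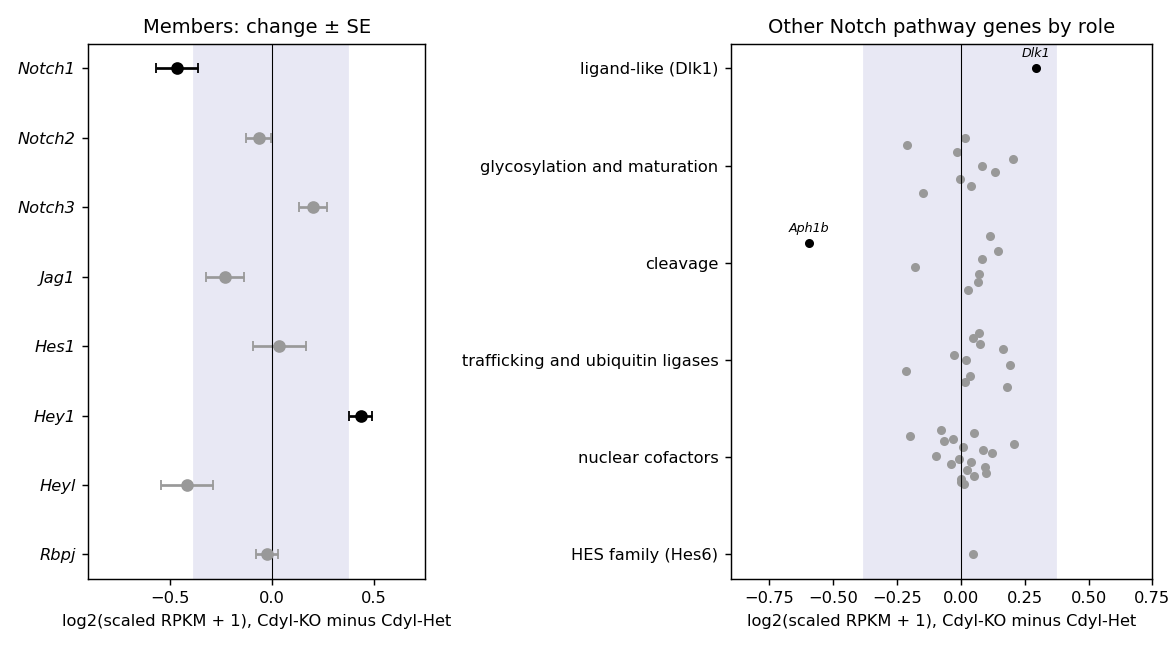
Differences in log2(scaled RPKM + 1), Cdyl-KO minus Cdyl-Het, for the 8 members with SE (left) and for 50 other pathway genes by role without error bars (right); black points passed the threshold, grey points did not, and the shaded band holds the middle of all genes, from -0.38 to 0.37 (5th to 95th percentile). Hey1, Notch1 and Heyl lie outside the band on the left, and Aph1b on the right.

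Beyond the members, a list of 67 other Notch pathway genes was drawn up, and 50 of them are among the genes with values. Of these 50, 1 rose and 1 fell, and 48 fell short of the threshold, beside 4.67% of all genes called higher and 2.83% called lower. The median difference was 0.04, against 0.00 over all genes, and 34 of the 50 were above 0. Differences ran from -0.60 to 0.30.

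The gene that fell was Aph1b (chromosome 9, 66775202 to 66795490), a subunit of the gamma-secretase complex. It was at 3.31, 3.53 and 3.57 scaled RPKM in Cdyl-Het, against 1.89, 1.96 and 2.02 in Cdyl-KO. The groups were far apart and narrow, with means of 3.47 ± 0.140 and 1.96 ± 0.0690 (SD, n = 3 per group). Aph1b fell by 0.60 on the log2 scale (SE 0.07, limma adjusted p = 0.00681), and it passed in all 12 alternative fits that included it (adjusted p 0.00436 to 0.0362). Aph1c, a close copy next to it on the chromosome, is not analysed here, and reads that fit both genes make the level of Aph1b uncertain.

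Genes of receptor cleavage set beside Aph1b were named after their values were seen, and they did not pass the threshold. Aph1a, which can take the place of Aph1b in the complex, was at 7.73 ± 0.190 in Cdyl-Het and 8.69 ± 1.03 in Cdyl-KO (scaled RPKM, mean and SD of 3 libraries each, limma adjusted p = 0.310). Aph1b relative to Aph1a was at 0.417, 0.464 and 0.469 in Cdyl-Het, against 0.243, 0.230 and 0.207 in Cdyl-KO, with no overlap (exact permutation p = 0.10, two-sided, adjusted 0.13). Aph1b was lower without overlap, and Aph1a varied by less than that gap, so this ratio had to separate and is no further test. Adam10 and Adam17, metalloproteases that can cut the receptor, had log2 changes of 0.03 and 0.07 (limma adjusted p = 0.817 and 0.453).

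The gene that rose was Dlk1 (chromosome 12, 109452823 to 109463336), an imprinted Delta-like protein without the domain that activates the receptor. It was at 13.1, 13.1 and 12.3 scaled RPKM in Cdyl-Het, against 16.2, 15.7 and 16.1 in Cdyl-KO, with no overlap. The means were 12.9 ± 0.469 and 15.998 ± 0.284 (SD, n = 3 per group; log2 change 0.30, SE 0.05, limma adjusted p = 0.0191). Without scaling the call was lost (log2 change 0.16, adjusted p = 0.0588). It was also lost without Cdyl-Het replicate 2 or 3 (0.0543 and 0.0641) and without Cdyl-KO replicate 1, 2 or 3 (0.0704, 0.0555 and 0.0577). Notch4, Dll3 and Dll4 are not analysed here, nor are Nrarp and Hey2.

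None of the other groups of the list held a gene past the threshold. The glycosyltransferases and other enzymes that mature the receptor counted 9 genes with a median of 0.02. Lfng, the Fringe enzyme that tunes which ligand a receptor answers to, was at 3.20, 2.55 and 3.92 scaled RPKM in Cdyl-Het, against 2.80, 2.84 and 2.69 in Cdyl-KO (limma adjusted p = 0.479). The Cdyl-KO libraries were tight and fell within the range of Cdyl-Het. The 11 trafficking genes and ubiquitin ligases had a median of 0.05, and the 20 nuclear cofactors, among them the Mastermind genes Maml1, Maml2 and Maml3, a median of 0.01.

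Cells other than the somatic cells of the gonad may carry Notch genes, and markers of vessel cells differed between the groups. Of 16 endothelial markers listed for this purpose, 11 had values. Of these, 5 fell and 6 fell short of the threshold, with none higher (median log2 change -0.43). Over all genes, 2.83% were called lower and 4.67% higher. The marker lists were chosen with earlier results of these data known. Their summed level was 43.9 to 48.3 scaled RPKM in Cdyl-Het and 28.9 to 33.8 in Cdyl-KO, without overlap. Kdr, a VEGF receptor, averaged 10.8 and 6.91, and Cdh5, the cadherin of endothelial junctions, 6.84 and 4.38. Plvap, the next most abundant of these markers, averaged 5.84 and 5.02, with overlapping groups (limma adjusted p = 0.385). In bulk RNA, fewer cells of a type and less RNA per cell cannot be told apart. Of 10 markers of mural cells (pericytes and smooth muscle), 8 had values, and 2 fell, 0 rose and 6 did not pass; their sum was 38.4 to 43.3 and 32.6 to 40.2, with overlap. No marker with a value was at 0.

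**Figure D4:**
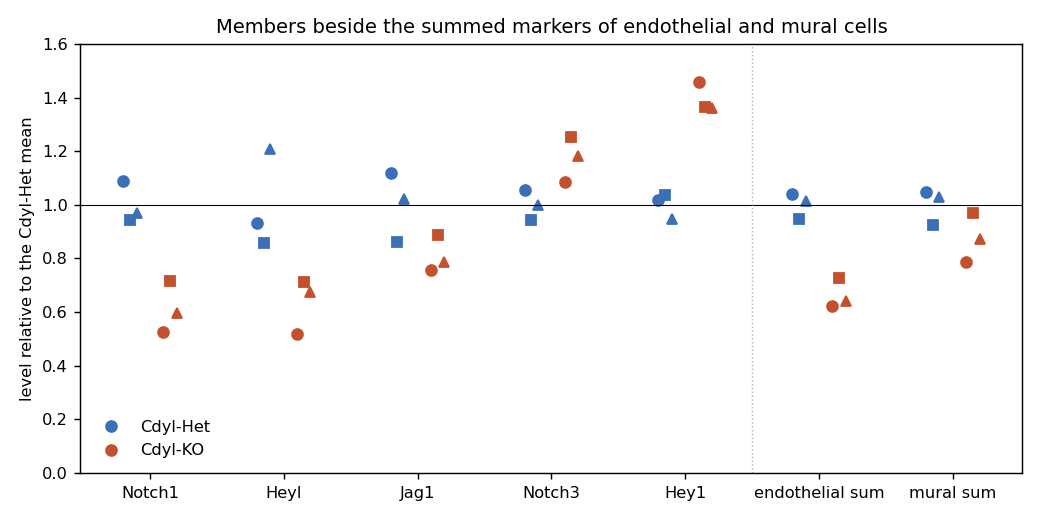
Level of 5 members and of the summed endothelial and mural markers, each divided by its own Cdyl-Het mean (vertical axis, from 0), in 3 Cdyl-Het (blue) and 3 Cdyl-KO (orange) libraries. Notch1 in Cdyl-KO is at 0.525 to 0.714 of its Cdyl-Het mean and the endothelial sum at 0.623 to 0.729, while Hey1 is at 1.36 to 1.46.

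Set against these markers in the same library, the members differed. Notch1 was at 5.36, 5.11 and 4.89% of the summed endothelial markers in Cdyl-Het, against 4.32, 5.02 and 4.74% in Cdyl-KO, and the groups overlapped (exact permutation p = 0.20, two-sided, adjusted 0.236). Heyl was at 4.76 ± 0.797% and 4.55 ± 0.534% (SD, n = 3 per group; exact permutation p = 0.80, adjusted 0.80), also with overlap. Jag1 was at 8.12 ± 0.676% and 9.93 ± 0.0333% and Hey1 at 16.7 ± 1.38% and 35.2 ± 3.94%, both without overlap and both with an exact permutation p of 0.10 (two-sided, n = 3 per group, adjusted 0.13). Relative to the summed mural markers, Notch3 was at 14.4 ± 0.331% and 19.4 ± 0.678% and Heyl at 5.34 ± 0.826% and 3.86 ± 0.315%, again without overlap (exact permutation p = 0.10 for each, two-sided, n = 3 per group, adjusted 0.13). Hey1 was higher and the endothelial sum lower without overlap, so the ratio of Hey1 to that sum had to separate. The part of these cells in the differences of Notch1, Heyl and Jag1 was not tested.

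Other cell types showed a different picture beside the members. Of 8 interstitial progenitor markers, 1 rose and 7 did not pass. Their sum was 120 to 126 scaled RPKM in Cdyl-Het and 133 to 139.5 in Cdyl-KO, without overlap. The ratio of this sum was 1.10, beside 1.11 for the scaled sum of all genes, which did not overlap either. Tcf21 was lower in mean (ratio 0.882), and the other 7 markers had changes above 0. Of 8 genes of the gonadal somatic and supporting lineage, 3 rose (Emx2, Nr0b1 and Lhx9) and 1 fell (Sox9). The sums overlapped (369 to 418 and 369 to 420.4). Of 7 mesonephric epithelium markers, 6 had values and 1 rose; their sums overlapped at 13.1 to 19.8 and 15.9 to 20.0. Germ cell, blood and neural lists had 1, 2 and 2 markers with values. Of the 2 neural markers, Tubb3, a tubulin of neurons, rose (ratio 3.08, limma adjusted p = 0.0195) and Stmn2 did not pass. Their sum was 1.28 to 3.16 in Cdyl-Het and 4.31 to 6.39 in Cdyl-KO, without overlap (ratio 2.46). Stmn2 averaged 0.899 scaled RPKM in Cdyl-Het and 1.39 in Cdyl-KO and is listed only through its higher group. The sum is therefore tilted towards Cdyl-KO and is no measure of these cells. No blood or germ cell marker passed: the sums were 14.9 to 62.3 and 15.3 to 45.4 for the 2 blood markers, and Utf1, the germ cell marker with a value, was at 2.19 to 2.76 and 1.88 to 2.64. Their part in the differences of the members was not tested.

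The genes whose log2 levels over the 6 libraries were most like those of Hey1 were Bmyc (Pearson r = 0.998) and Por (0.997), out of 11678 genes compared. For Notch1 they were Mastl (0.994) and Ddr2 (0.993). With 6 libraries in 2 groups, such values mainly reflect the difference between the groups, and they are given as a description.

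**Figure D5:**
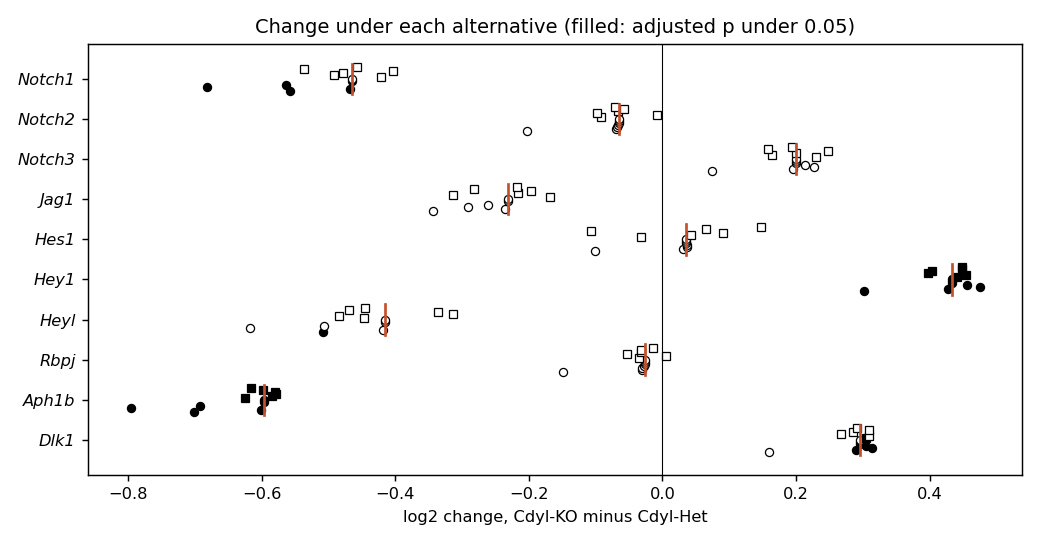
Log2 change, Cdyl-KO minus Cdyl-Het, of the 8 members, Aph1b and Dlk1 under up to 13 alternative fits; squares leave out 1 library, circles change another choice, filled symbols passed the threshold and the orange line is the reported value. Hey1 and Aph1b are filled throughout, whereas Notch1 is open in each fit that leaves out a library.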

How the data were processed

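Each library came as a deposited table of gene symbols and values whose unit is not named. The authors' values were taken as RPKM, since they were not whole and summed to 191953 to 209917 per library. STAR, Subread, featureCounts 1.6.4 and mm10 are named, per the submitters' processing notes. For the annotation, strand setting and gene filter, "not given in the sources used here" applies.

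Values were divided by a trimmed mean of log ratios to Cdyl-Het replicate 1 (30% of ratios and 5% of levels trimmed at each end). Log2(scaled RPKM + 1) was fitted with limma 3.58.1 in R 4.3.3, by group alone and with a trended empirical Bayes spread, over 11736 genes. The threshold was an adjusted p of 0.05. The procedure was tested on simulated data.

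Reads were worked out from RPKM times the exon length in GENCODE M21 (98.3% of symbols matched 1 gene): 82.9 to 85.9% of the values examined were whole within 0.02. Of these, 84.0 to 87.2% were even, so separate fragments may be fewer. Positions are those of GENCODE M21 (GRCm38, mm10).

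The members are found by symbol alone, but they and the lists were chosen with earlier results of these data known. Named were the members, pathway genes past the threshold, a fixed set of further pathway genes, up to 3 abundant markers per cell list, and the 2 genes most alike to each changed member. Alternatives changed the scaling, the pseudocount, a minimum level, the trend, a replicate block and each library.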

Additional observations from a re-analysis of the deposited data

How the results depend on the processing

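Of the 8 members, 2 were called in the reported fit, 1 higher and 1 lower. The count was 1 with a minimum mean of 5, which takes Notch1, Jag1 and Heyl out of the test, 1 with a replicate block, and 1 in each fit that left out a library (1 to 1); it was 2 or 3 in the other alternatives. Among the other pathway genes, 2 were called, against 1 with the minimum of 5, 1 with the replicate block, 1 to 2 with a library left out, and 3 without scaling, of which 0 were higher and 3 lower. Over all genes, 880 were called, against 1863 without scaling, 337 with the replicate block and 253 to 647 with a library left out. Hes1, not called in any fit, changed sign without scaling (-0.10) and when replicate 1 of Cdyl-Het (-0.03) or of Cdyl-KO (-0.11) was left out, with a range of -0.11 to 0.15 over the left-out libraries. Rbpj changed sign without replicate 2 of Cdyl-Het (0.00488), with a range of -0.053 to 0.00488. The cause was not tested. Same-numbered libraries deviated from their group means with correlations of -0.05, -0.27 and -0.05 across genes. For differently numbered libraries the correlations were -0.14 to 0.22. Deviations within a group are tied to each other, so these values cannot decide whether the numbers pair the samples. With the block, Notch1 had an adjusted p of 0.122 and Dlk1 of 0.0788, while Hey1 (0.0369) and Aph1b (0.0337) passed. Heyl passed only without scaling, and Notch2, Notch3 and Jag1 passed in no fit. Heyl rested on the fewest reads of the members with read numbers (244 to 641). Its SE was 0.13, as was that of Hes1 (892 to 1432 reads). With a pseudocount of 0.1 the SE was 0.19 for Heyl and 0.14 for Hes1. The part of read number in the SE was not tested.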
